A study of Mus musculus with 15 samples.

Results

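The cell cycle and DNA replication genes are 40 genes named by symbol, out of 57180 gene identifiers counted by RNA-seq in mouse brainstem. All 40 were found in both deposited count tables. They were kept in 3 classes: 18 genes of S phase and replication, 20 genes of mitosis and 2 G1 cyclins. The series holds 15 libraries of C57BL/6 mice in 2 experiments. The AMPK experiment compared 3 AMPK+/+ libraries (WT) with 3 AMPK-/- libraries from brainstem of newborn littermates, called neonatal here. The alpha 2 catalytic subunit of the kinase, encoded by Prkaa2, is the one deleted. The age follows the study's description of its mice, and none is given for these libraries themselves. The LMX1B experiment compared 3 LMX1B+/+ libraries (WT), 3 LMX1B+/- libraries and 3 LMX1B-/- libraries from prenatal brainstem; LMX1B-/- embryos do not survive to birth. No treatment is labelled for any library, the labels give no age in days, and nothing in them says whether a library came from a single animal or from pooled tissue, so the p-values measure the spread between these libraries. The question put to the data was how strongly proliferation genes were expressed in each genotype and experiment.

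Cells that divide pass through G1, S phase, G2 and mitosis. In G1, cyclins D1 and D2 (Ccnd1, Ccnd2) activate the kinases Cdk4 and Cdk6, the retinoblastoma proteins are phosphorylated, and E2F factors switch on the genes of S phase. Replication origins are then licensed by Cdc6 and Cdt1, which load the Mcm2 to Mcm7 helicase, and fired with Cdc45 and the GINS subunits Gins1 and Gins2, while Pcna clamps the polymerases onto DNA and Rrm1, Rrm2 and Tyms supply nucleotides. The mitotic genes are switched on later, in G2, and encode cyclins A and B with Cdk1, the Aurora and Polo kinases, kinetochore and spindle proteins, and the Cdc20 and Ube2c arms of the anaphase-promoting complex. In the hindbrain, division is largely a property of neural and glial progenitors and of cells in blood vessels, meninges and blood, while neurons have left the cycle.

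Depth was 14975095 to 17384171 counts in 4 of the 6 AMPK libraries, 291212 in WT 2 and 335986 in AMPK-/- 3, and 28833130 to 37441679 in the 9 LMX1B libraries. Levels are given as CPM, counts scaled by TMM to a common library total within each experiment. In the shallow WT 2 and AMPK-/- 3 libraries 3 counts are worth 9.98 and 9.07 CPM, and 23 and 20 of the 40 members had no count at all. Lmx1b stood at 22.5, 16.04 and 9.73 CPM in its 3 WT libraries, compared with 1.45, 1.13 and 0.848 CPM in LMX1B-/-. In LMX1B+/- it stood at 30.5, 11.9 and 14.25 CPM and overlapped WT (log2 difference 0.23 ± 0.33 SE, adjusted p = 0.618). Prkaa2 was not lower in every AMPK-/- library: the 3 values were 25.4, 22.3 and 12.1 CPM, while WT had 21.9, 26.6 and 29.7 CPM (a log2 difference of -0.20 ± 0.23 SE, adjusted p = 0.659), so the genotypes of the AMPK-/- and LMX1B+/- libraries rest on their labels. The deleted part of Prkaa2 is not given in the sources used here, so counts over the whole gene may not show the deletion. The study shows genotyping PCR of knockout and WT mice but does not tie those mice to these libraries. The serotonin neuron gene Tph2 stood at 134 and 69.5 CPM in AMPK-/- 1 and AMPK-/- 3 and at 0.700 to 6.66 CPM in the other 4 libraries of the experiment. WT 3 of the AMPK experiment carried skeletal muscle transcripts (summed over 8 markers, 632 CPM against 3.02 to 5.99 CPM in the other 5 libraries of that experiment). In the summed erythroid, oligodendrocyte precursor and skeletal muscle markers every LMX1B+/- library lay outside both other prenatal genotypes, as set out below.

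The promoters of the members were searched for letters known from the control of the cycle. RefSeq promoter windows on GRCm38.p6, a build other than the GRCm39 named for the alignment, were matched for 31 of the 40 members (14 of S phase and replication, 17 of mitosis), and the 150 bases before the start of each were searched on both strands for 3 motifs. The CHR element (TTTGAA or TTTAAA), through which mitotic genes are known to be held off outside G2 and mitosis, was found in 9 of 17 mitotic and 2 of 14 S phase genes, against 16.8% of all 27025 genes with a window. The CCAAT box was found in 15 of 17 and 9 of 14, against 27.7% of all genes. An E2F-type site (TTTCCCGC, TTTGGCGC, TTTCGCGC or TTTGCCGC) was found in 1 of 17 and 4 of 14, against 1.44% of all genes. None of these letter strings contains another, and a match describes the letters of this window and is no evidence of binding. The windows of 9 members named below are shown: Pcna at chr2:132253181-132253330 on the minus strand, Rrm1 at chr7:102441545-102441694 on the plus strand, Mcm5 at chr8:75109359-75109508 on the plus strand, Cdk1 at chr10:69352913-69353062 on the minus strand, Ccnb1 at chr13:100786487-100786636 on the minus strand, Cdc20 at chr4:118437344-118437493 on the minus strand, Ube2c at chr2:164769779-164769928 on the plus strand, Top2a at chr11:99024190-99024339 on the minus strand, and Mki67 at chr7:135716380-135716529 on the minus strand. Of these, Mcm5, Top2a and Mki67 were not called between genotypes in the edgeR fits of all libraries. Other members called there are not shown, Bub1 among them. The window of Bub1 held CCAAT boxes at 68 and 42 bases before the start and no CHR element or E2F-type site. Capitals mark the motif letters on either strand.
Pcna: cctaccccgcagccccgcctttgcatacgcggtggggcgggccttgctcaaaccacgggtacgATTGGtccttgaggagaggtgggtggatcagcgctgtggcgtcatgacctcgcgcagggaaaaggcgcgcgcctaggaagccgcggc
Rrm1: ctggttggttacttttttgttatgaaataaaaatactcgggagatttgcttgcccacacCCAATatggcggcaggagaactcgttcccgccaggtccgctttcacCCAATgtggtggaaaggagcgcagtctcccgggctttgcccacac
Mcm5: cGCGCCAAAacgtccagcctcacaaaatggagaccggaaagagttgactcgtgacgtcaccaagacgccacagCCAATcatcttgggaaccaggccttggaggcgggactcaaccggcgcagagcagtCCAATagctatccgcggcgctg
Cdk1: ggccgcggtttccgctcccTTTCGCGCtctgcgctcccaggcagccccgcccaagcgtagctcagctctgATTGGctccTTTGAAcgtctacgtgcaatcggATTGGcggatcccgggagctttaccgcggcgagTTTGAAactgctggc
Ccnb1: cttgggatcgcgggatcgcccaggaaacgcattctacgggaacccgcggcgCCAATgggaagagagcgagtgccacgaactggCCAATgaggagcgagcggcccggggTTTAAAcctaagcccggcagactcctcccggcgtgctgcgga
Cdc20: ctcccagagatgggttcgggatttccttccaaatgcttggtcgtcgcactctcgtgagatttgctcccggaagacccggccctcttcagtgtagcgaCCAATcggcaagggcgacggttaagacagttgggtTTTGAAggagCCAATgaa
Ube2c: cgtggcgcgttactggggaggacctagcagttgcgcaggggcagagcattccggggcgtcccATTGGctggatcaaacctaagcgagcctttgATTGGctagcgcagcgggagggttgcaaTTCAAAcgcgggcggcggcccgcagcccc
Top2a: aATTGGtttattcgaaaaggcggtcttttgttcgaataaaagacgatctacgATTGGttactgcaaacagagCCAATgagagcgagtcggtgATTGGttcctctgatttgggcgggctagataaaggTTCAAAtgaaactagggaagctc
Mki67: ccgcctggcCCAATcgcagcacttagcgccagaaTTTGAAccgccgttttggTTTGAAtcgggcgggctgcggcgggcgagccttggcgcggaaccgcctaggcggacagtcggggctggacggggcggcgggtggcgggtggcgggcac
Cdk1, the kinase that drives entry into mitosis, was the only mitotic gene whose window held all 3 motifs: an E2F-type site beginning 131 bases before the start, CCAAT boxes at 80 and 48 bases, and CHR elements at 71 and 15 bases. In Ccnb1, Cdc20, Ube2c and Top2a the CHR element began within 42 bases of the start and a CCAAT box lay upstream of it. The window of Mcm5 held an E2F-type site at 149 bases, whereas those of Pcna and Rrm1 held only CCAAT boxes among the strings searched. Shorter or variant E2F-type letters were not searched for, so their absence is not shown. Mki67 had its CHR elements farther out, at 116 and 98 bases.

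As class sums, mitotic genes were scarce in neonatal brainstem and abundant in prenatal brainstem, while S phase genes were present in both. Single S phase genes differed widely in pooled neonatal WT. Pcna stood at 23.1 CPM and Rrm1 at 22.0 CPM, but Rrm2 at 1.20, Gins2 at 0.490 and Cdc6 at 0.307 CPM. Summed over the 18 S phase and replication genes, the level was 119 and 113 CPM in neonatal WT 1 and WT 3, and 118 and 111 CPM in AMPK-/- 1 and AMPK-/- 2. The prenatal sums were 284, 319 and 300.2 CPM in WT, 307, 387 and 369 CPM in LMX1B+/-, and 288, 299 and 272 CPM in LMX1B-/-. The sum over the 20 mitotic genes was 15.01, 26.4, 19.7 and 17.0 CPM in the same 4 neonatal libraries. It reached 369.5, 503 and 385 CPM in prenatal WT, 313, 489.9 and 490.6 CPM in LMX1B+/-, and 359, 368 and 334 CPM in LMX1B-/-. No neonatal library overlapped a prenatal library in either sum. Ccnd1 and Ccnd2 together gave 33.1, 36.7, 27.0 and 27.1 CPM in the 4 neonatal and 93.7 to 139 CPM in the 9 prenatal libraries.

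**Figure D1:**
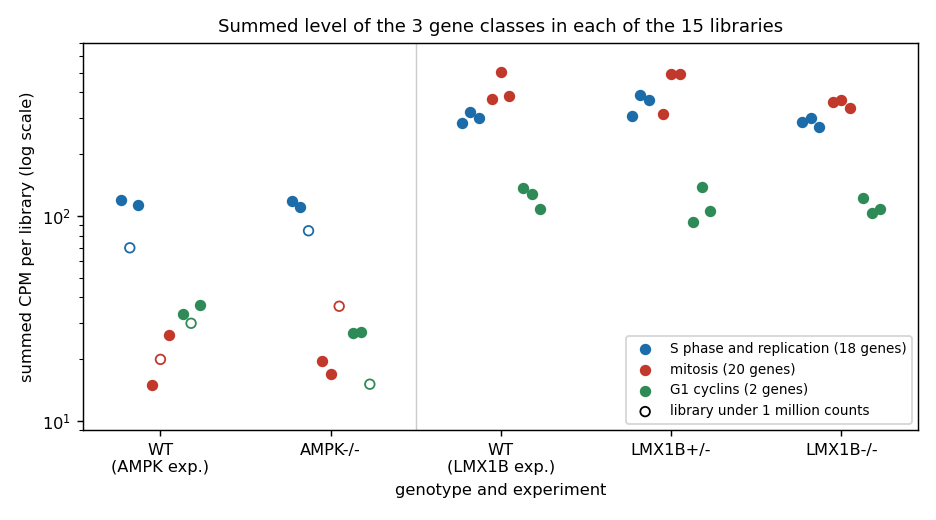
Summed CPM (vertical axis, log scale) of the 18 S phase, 20 mitosis and 2 G1 cyclin genes, with 1 point per library in each genotype and experiment and open points for the shallow libraries WT 2 and AMPK-/- 3. In the 4 deeper neonatal libraries mitosis lies at 15.01 to 26.4 CPM and S phase at 111 to 119 CPM; in the 9 prenatal libraries they lie at 313 to 503 CPM and 272 to 387 CPM.

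A ratio of the classes within a library does not depend on scaling. For each count on an S phase gene there were 0.126, 0.233, 0.167 and 0.153 counts on mitotic genes in neonatal WT 1, WT 3, AMPK-/- 1 and AMPK-/- 2. The shallow WT 2 gave 6 mitotic to 21 S phase counts, a ratio of 0.286 (95% counting interval 0.0944 to 0.732), and AMPK-/- 3 gave 12 to 28, a ratio of 0.429 (0.199 to 0.870). In prenatal brainstem the ratio was 1.300, 1.57 and 1.28 in WT, 1.02, 1.27 and 1.33 in LMX1B+/- and 1.25, 1.23 and 1.23 in LMX1B-/-. LMX1B+/- 1 was the lowest and WT 2 the highest of the prenatal libraries, and LMX1B+/- overlapped both other genotypes, while every LMX1B-/- library lay below every WT library. LMX1B-/- was the least spread (SD 0.0108, against 0.164 in WT and 0.165 in LMX1B+/-, n = 3 each). Counting intervals cover counting error only. The prenatal and neonatal libraries were made in separate experiments, so age and experiment cannot be told apart, and levels set across them are a description without a test. In tissue of mixed cells, fewer cells of a type and less RNA per cell cannot be told apart either.

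Of the 40 members, 37 were higher in each of the 9 prenatal than in each of the 4 deeper neonatal libraries, as were 27.8% of all genes tested. These were all 20 mitotic genes, 16 of 18 S phase genes and 1 of 2 G1 cyclins. The median ratio of prenatal to neonatal WT, taken over the genes of a class, was 18.6 for mitosis, 3.04 for S phase and 3.42 for the G1 cyclins. It was 1.15 over the 17140 genes with enough counts to be tested in both experiments. That set is not fully alike, since 12 of the 20 mitotic and 16 of the 18 S phase genes had enough neonatal counts to be tested. With library-size scaling instead of TMM 36 were higher, 0 lower and 4 overlapped.

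The mitotic genes spread widely. Ki-67 (Mki67), which coats mitotic chromosomes, had 63 counts in neonatal WT, or 1.93 CPM, and 10054 counts in prenatal WT, or 98.9 CPM, a ratio of 51.2-fold (counting interval 39.98 to 66.7). Topoisomerase II alpha (Top2a), which untangles sister chromatids, went from 35 to 7111 counts, 65.2-fold (counting interval 46.8 to 93.7). Cyclin B1 (Ccnb1), the partner of Cdk1, had 3 counts in neonatal WT and 920 in prenatal WT, 98.4-fold (counting interval 33.6 to 478). Ratios of 88.8 for the kinetochore protein gene Cenpf and 65.9 for the checkpoint kinase gene Bub1 also rested on few neonatal counts, 15 and 4. These intervals leave out the spread between the neonatal libraries. Mki67 stood at 0.395 CPM in neonatal WT 1 and 3.33 CPM in WT 3, and its ratio was 30.2 without WT 1 and 255 without WT 3. That of Top2a was 39.3 without WT 1 and 271 without WT 3. Leaving out 1 WT library moved the ratio by over 1.5 times in 13 of 20 mitotic and 3 of 18 S phase genes, through neonatal WT 1 or WT 3 in each; Bub1 and Aurkb had no neonatal WT count left without WT 3. The median over the mitotic genes was 17.8 from pooled counts, 13.3 without WT 1 and 28.7 without WT 3, and over the S phase genes 3.05, 3.14 and 3.34. At the lower end of the class were the Aurora A kinase gene Aurka at 3.86-fold, Bub1b at 5.03-fold and the spindle protein gene Nusap1 at 5.30-fold.

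Among S phase genes, Rrm2, the subunit of ribonucleotide reductase that is limiting outside S phase, had the largest ratio, 15.4-fold (counting interval 11.3 to 21.8), followed by the licensing factor gene Cdc6 at 11.1-fold from 10 neonatal counts, a ratio that was 6.57 without WT 1 and 52.6 without WT 3. Rrm1, the other subunit of the reductase, differed by 2.32-fold. The helicase genes ranged from 1.69-fold for Mcm4 and 2.81-fold for Mcm2 to 6.33-fold for Mcm5 and 6.66-fold for Mcm6, whose products form a single ring. Pcna overlapped between the ages, with 18.6 to 31.7 CPM in the 4 deeper neonatal and 25.8 to 57.8 CPM in the 9 prenatal libraries. Cyclin E1 (Ccne1) ran the other way and was the only member lower in every prenatal library, at 6.44 to 8.21 CPM against 8.46 to 11.2 CPM, and 12.2% of all genes behaved so. With library-size scaling its groups overlapped. Cyclin E2 (Ccne2) was higher prenatally, by 1.63-fold.

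**Figure D2:**
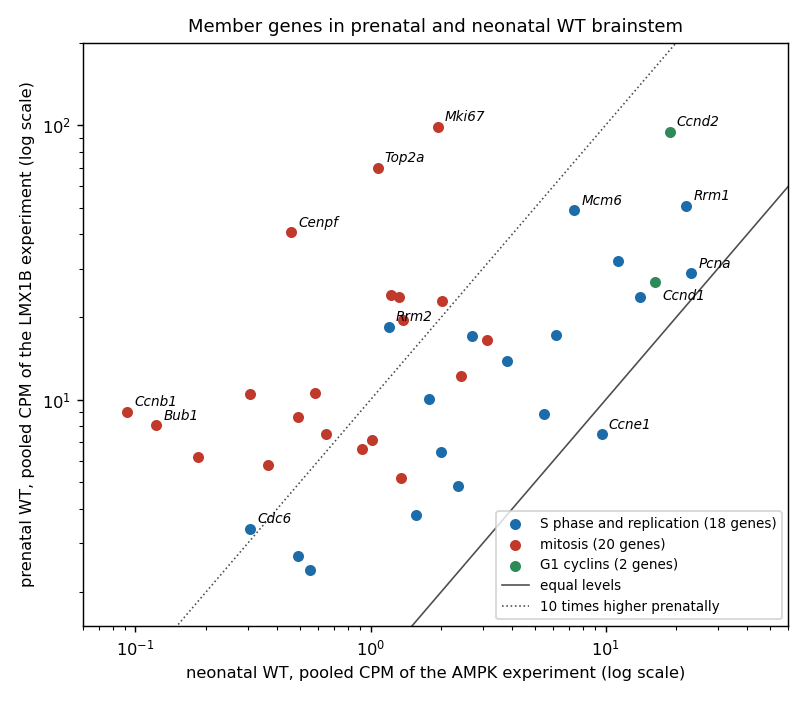
Pooled CPM of each member in prenatal WT (vertical axis) against neonatal WT (horizontal axis), both on log scales, with 1 point per gene coloured by class; the solid line marks equal levels and the dotted line a prenatal level 10 times higher. The points farthest above the solid line are mitotic genes, up to a ratio of 98.4 for Ccnb1. Other mitotic genes, such as Aurka (3.86), lie closer to it than the S phase gene Rrm2 (15.4). Ccne1 is the only point below the solid line.

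Per gene length, as RPKM, Pcna was the highest member at both ages, at 11.0 ± 1.87 RPKM (SD, n = 4 deeper libraries) in neonatal and 15.4 ± 3.94 RPKM (SD, n = 9) in prenatal brainstem. The next in neonatal tissue were Mcm4 (3.75 ± 0.56), Ccne1 (3.63 ± 0.40) and Ccnd1 (3.13 ± 0.97 RPKM), whose ranges overlapped, and the first mitotic gene, Bub1b, came 13th with 0.639 ± 0.284 RPKM. In prenatal tissue Mcm6 (10.6 ± 1.40), Ccnd2 (9.96 ± 1.66) and Mki67 (8.75 ± 2.16 RPKM) came next, again with overlapping ranges. The lowest members were Ccnb1 in neonatal (0.0152 ± 0.0130 RPKM) and Cdc6 in prenatal brainstem (0.578 ± 0.166 RPKM). For Cdc6 the prenatal levels were 2.92, 3.43 and 3.67 CPM in WT, 2.39, 3.71 and 2.94 CPM in LMX1B+/- and 2.94, 3.24 and 1.64 CPM in LMX1B-/-, with overlapping groups.

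In neonatal brainstem no member was called between AMPK-/- and WT. Of the 30 members with enough counts to be tested, 0 had an adjusted p under 0.05 in edgeR's quasi-likelihood test, where 8.94% of all 17397 tested genes did, 3.77% higher and 5.17% lower. Cenpf and Nusap1 had an unadjusted p under 0.05 (24.6% of all genes did), with log2 fold changes of 1.56 ± 0.74 (SE, adjusted p = 0.195) and -1.13 ± 0.51 (adjusted p = 0.172). The median log2 fold change was -0.11 over 16 S phase genes and 0.02 over 12 mitotic genes, against -0.01 over all genes. Cdc6, Gins1, Top2a, Ccnb1, Ccnb2, Bub1, Aurkb, Birc5, Cenpa and Ube2c had too few counts for the test. Other tools gave no call, DESeq2 included. Cenpf was called higher with the replicate block, and Pcna was called higher without WT 1, where 7.76% and 16.4% of all genes were called.

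The values show how few counts lay behind this comparison. Pcna, the polymerase clamp, stood at 28.4 and 18.6 CPM in WT 1 and WT 3 and 31.7 and 28.8 CPM in AMPK-/- 1 and AMPK-/- 2, with 6.66 CPM in the shallow WT 2 and 27.2 CPM in the shallow AMPK-/- 3. WT 3 was the lowest of the 4 deeper libraries and the groups overlapped only through WT 1 and AMPK-/- 3 (log2 fold change 0.44 ± 0.25, adjusted p = 0.284). Rrm1 stood at 21.1 and 22.8 CPM in WT 1 and WT 3 and 19.3 and 18.5 CPM in AMPK-/- 1 and AMPK-/- 2, with 19.97 and 9.07 CPM in the shallow libraries of each genotype. Every AMPK-/- library was below every WT library, the only one of the 30 members without overlap, where 12.7% of all genes were lower without overlap, and it was not called (log2 fold change -0.28 ± 0.24, adjusted p = 0.51). Ccnd1 stood at 13.2 and 18.97 CPM in WT 1 and WT 3 and 14.996 and 11.3 CPM in AMPK-/- 1 and AMPK-/- 2, and Ccnd2 at 19.9 and 17.7 CPM in WT 1 and WT 3 and 11.96 and 15.9 CPM in AMPK-/- 1 and AMPK-/- 2, with 16.6 and 13.3 CPM in WT 2 and 6.04 and 9.07 CPM in AMPK-/- 3. Both G1 cyclins were on average lower in AMPK-/-, without a call (adjusted p = 0.447 and 0.3).

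Mki67 varied more between the WT libraries than between genotypes, with 0.395 and 3.33 CPM in WT 1 and WT 3 and 2.97 and 1.04 CPM in AMPK-/- 1 and AMPK-/- 2, and 0 counts in both shallow libraries. Of the 4 deeper libraries WT 3 was also the highest in Top2a, at 1.81 CPM against 0.263 CPM in WT 1 and 0.330 and 0.259 CPM in AMPK-/- 1 and AMPK-/- 2. WT 3 is the library with skeletal muscle transcripts, and their part in these values was not tested. Cdk1 stood at 0.329 and 0.817 CPM in WT 1 and WT 3 and 0.859 and 0.324 CPM in AMPK-/- 1 and AMPK-/- 2, and Ccnb1 had 2, 1, 0 and 1 counts in the same libraries. The replication genes were more even: Mcm5 stood at 2.83 and 2.57 CPM in WT 1 and WT 3 and 2.64 and 2.72 CPM in AMPK-/- 1 and AMPK-/- 2, and Mcm7 at 12.1 and 10.5 CPM in WT 1 and WT 3 and 8.59 and 11.98 CPM in AMPK-/- 1 and AMPK-/- 2. Rrm2 had 0.856 and 1.52 CPM in WT 1 and WT 3 and 0.925 and 1.296 CPM in AMPK-/- 1 and AMPK-/- 2. Mcm2 varied more, with 4.02 and 8.11 CPM in WT 1 and WT 3 and 5.29 and 3.30 CPM in AMPK-/- 1 and AMPK-/- 2. Tyms stood at 1.98 and 2.04 CPM in WT 1 and WT 3 and 1.72 and 1.62 CPM in AMPK-/- 1 and AMPK-/- 2. Gins1 had 0.527 and 0.584 CPM in WT 1 and WT 3 and 0.727 and 1.17 CPM in AMPK-/- 1 and AMPK-/- 2, and Gins2 had 0.263 and 0.700 CPM in WT 1 and WT 3 and 1.45 and 0.907 CPM in AMPK-/- 1 and AMPK-/- 2. In these deeper libraries Tyms was lower and both GINS genes were higher in AMPK-/-, and all 3 overlapped once the shallow libraries were included, where the genes of this paragraph had 0 to 6 counts. The mitotic regulators Cdc20, Bub1, Nusap1 and Ube2c lay between 0 and 3.49 CPM in the 4 deeper libraries, and Cdc6 between 0.0658 and 0.529 CPM.

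In prenatal brainstem 7 of the 40 members were higher in LMX1B+/- than in WT and 0 were lower, at adjusted p under 0.05. Across all 21729 genes tested 36.7% passed the same test, 19.4% higher and 17.3% lower, so the share of members called higher (17.5%) was near that of all genes, and the share called lower was below it. The 7 were Pcna, Rrm1, Tyms, Gins1 and Gins2 of S phase and Cdk1 and Ube2c of mitosis. The medians of the classes were small, 0.07 for S phase and 0.06 for mitosis on the log2 scale, against -0.03 for all genes.

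Pcna differed most. It stood at 25.8, 30.9 and 29.6 CPM in WT 1 to 3 against 43.8, 54.1 and 57.8 CPM in LMX1B+/- 1 to 3, without overlap, a log2 fold change of 0.85 ± 0.12 (SE; adjusted p = 0.000115). It was called in each of the 14 alternatives run and without any of the 9 libraries in turn. Pcna-ps2, a gene annotated as a Pcna pseudogene, took 25.8% of the counts on the pair and moved alike (log2 fold change 1.03 ± 0.14, adjusted p = 9.71e-05), and how reads that match both were shared is not given in the sources used here, so the split between them is uncertain. Adding its counts to Pcna left all 7 calls.

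Of the 3 nucleotide genes Rrm1 and Tyms were called higher and Rrm2 was not. Rrm1, the large subunit of ribonucleotide reductase, stood at 46.3, 54.5 and 51.5 CPM in WT and 64.4, 67.1 and 81.5 CPM in LMX1B+/- (0.48 ± 0.11, adjusted p = 0.00353), while its small subunit Rrm2 stood at 18.96, 19.9 and 17.2 CPM in WT and 16.2, 23.7 and 21.9 CPM in LMX1B+/- and was not called (0.14 ± 0.14, adjusted p = 0.449). Thymidylate synthase (Tyms), which makes thymidine monophosphate, stood at 5.98, 6.58 and 6.69 CPM in WT and 7.56, 10.6 and 9.66 CPM in LMX1B+/- (0.53 ± 0.15, adjusted p = 0.0152). Rrm1 and Tyms did not overlap between the genotypes and Rrm2 did. The call of Tyms was lost without WT 1.

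Of the helicase and its cofactors, only the GINS subunits were called. Gins1 stood at 2.39, 1.94 and 2.73 CPM in WT and 3.80, 4.29 and 3.78 CPM in LMX1B+/- (0.74 ± 0.19, adjusted p = 0.00779), and Gins2 at 2.78, 3.29 and 2.28 CPM in WT and 3.37, 4.68 and 3.96 CPM in LMX1B+/- (0.53 ± 0.20, adjusted p = 0.0479). Neither overlapped. All 5 S phase genes called were thus without overlap, where 45.3% of all genes did not overlap and 23.4% were higher without overlap. At an unadjusted p under 0.05, which 46.1% of all genes met, 10 members passed. Gins2 lost its call without any of 7 of the 9 libraries. The 6 Mcm genes were not called, with log2 fold changes from -0.19 for Mcm3 to 0.17 for Mcm7. Mcm2 stood at 18.5, 17.7 and 16.1 CPM in WT and 12.9, 21.2 and 14.9 CPM in LMX1B+/-, and Mcm5 at 16.003, 17.6 and 17.4 CPM in WT and 16.2, 23.001 and 15.6 CPM in LMX1B+/-. For both, LMX1B+/- 2 was the highest of the 6 libraries and the groups overlapped.

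Cdk1 had 11.3, 11.7 and 9.396 CPM in WT against 11.7, 21.9 and 20.7 CPM in LMX1B+/- (0.75 ± 0.20, adjusted p = 0.0106). LMX1B+/- 2 and 3 were far above the WT libraries, and LMX1B+/- 1 lay within them. The same split appeared in Ube2c, the ubiquitin-conjugating enzyme of the anaphase-promoting complex, at 12.2, 9.91 and 9.76 CPM in WT and 10.6, 17.8 and 16.4 CPM in LMX1B+/- (0.50 ± 0.18, adjusted p = 0.0427). The call of Cdk1 was lost without LMX1B+/- 3, and that of Ube2c without any of 7 libraries. The other mitotic genes of the panel were not called. Mki67 stood at 83.5, 126 and 91.03 CPM in WT and 60.5, 94.2 and 90.9 CPM in LMX1B+/- (-0.29 ± 0.17, adjusted p = 0.208), Top2a at 62.01, 89.3 and 62.4 CPM in WT and 50.05, 83.04 and 83.6 CPM in LMX1B+/- (adjusted p = 0.94), and Ccnb1 at 8.65, 10.1 and 8.63 CPM in WT and 8.14, 11.8 and 12.1 CPM in LMX1B+/- (adjusted p = 0.285). In all 3, LMX1B+/- 1 was the lowest of the 6 libraries, and WT 2 was the highest WT library. The G1 cyclins were not called: Ccnd1 stood at 30.1, 27.98 and 24.04 CPM in WT and 17.5, 26.3 and 19.5 CPM in LMX1B+/- (-0.37 ± 0.14, adjusted p = 0.0581), and Ccnd2 at 106, 99.3 and 84.5 CPM in WT and 76.1, 113 and 86.6 CPM in LMX1B+/- (adjusted p = 0.713).

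**Figure D3:**
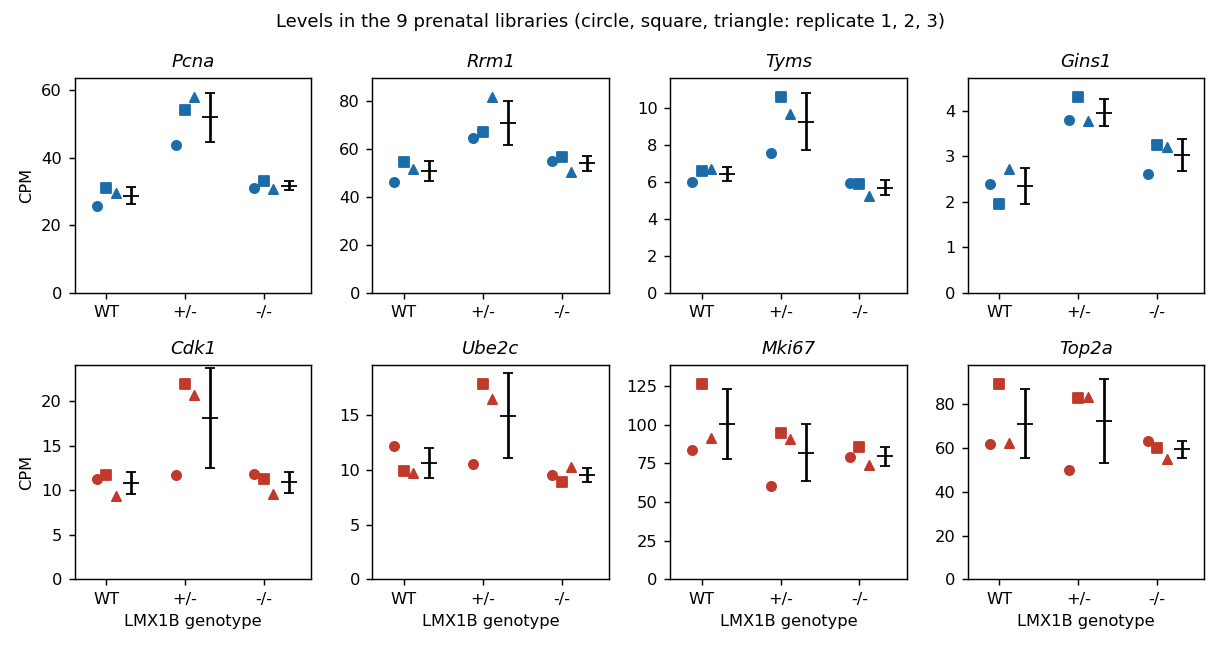
CPM (vertical axis, from 0) of 8 members in the 9 prenatal libraries by LMX1B genotype, with circles, squares and triangles for replicates 1, 2 and 3 and black bars for the mean ± SD (n = 3). Pcna in LMX1B+/- (43.8 to 57.8 CPM) lies above every WT and LMX1B-/- library, while Cdk1 is raised in LMX1B+/- 2 and 3 only and Mki67 and Top2a overlap throughout.

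This comparison depended on the library and on scaling. Without LMX1B+/- 1, 12 members were called, all higher, with Ccne2, Ccna2, Cdc20, Bub1 and Nusap1 added to the 7. That fit called 32.8% of all genes, 54.7% of them higher. Without LMX1B+/- 2, 5 were called higher (Pcna, Rrm1, Tyms, Gins1 and Cdk1) and 4 lower (Cdk2, Mcm3, Aurkb and Ccnd1). There 37.2% of all genes were called, 53.8% of them higher. Without LMX1B+/- 3, 4 were called (Pcna, Rrm1, Tyms and Gins1), against 26.5% of all genes, 56.1% of them higher. Scaling by library size alone moved the median log2 fold change of all genes to -0.27, turned the sign of 14 of the 40 members, called Pcna alone higher and called Mki67 and Ccnd1 lower. Under it 36.2% of all genes were called, and 26.1% rather than 53% of all called genes were higher.

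LMX1B-/- was lower than LMX1B+/- for 10 of the 40 members and higher for 0, where 25.5% of all tested genes were called, 14% lower and 11.5% higher. This comparison shares the LMX1B+/- libraries with the one above and so is not a second observation of them. The members were Pcna, Rrm1, Tyms and Mcm7 of S phase and Cdk1, Ccnb1, Cdc20, Bub1, Nusap1 and Ube2c of mitosis. The median log2 fold change was -0.23 over S phase and -0.38 over mitosis, against 0.02 over all genes, and 38 of the 40 members had a negative value. In 10 members, not all of them called, every LMX1B-/- library was below every LMX1B+/- library, as in 21.4% of all genes.

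Pcna stood at 31.1, 33.2 and 30.8 CPM in LMX1B-/-, all below the 43.8 CPM of the lowest LMX1B+/- library (-0.71 ± 0.11, adjusted p = 0.000714). Tyms stood at 5.94, 5.91 and 5.25 CPM (-0.70 ± 0.15, adjusted p = 0.0048) and Rrm1 at 54.9, 56.7 and 50.5 CPM (-0.39 ± 0.11, adjusted p = 0.0169). None of these 3 overlapped with LMX1B+/-, and the WT values of all 3 were below every LMX1B+/- library too. The helicase gene Mcm7 stood at 27.5, 28.1 and 26.2 CPM in LMX1B-/- against 37.2, 39.5 and 31.1 CPM in LMX1B+/- (-0.40 ± 0.11, adjusted p = 0.0174), with WT at 29.1, 34.3 and 32.7 CPM overlapping LMX1B+/-. Gins1 and Gins2, at 2.62, 3.24 and 3.21 CPM and 2.87, 2.58 and 2.76 CPM in LMX1B-/-, were below every LMX1B+/- library but missed the threshold (adjusted p = 0.148 and 0.0558). Mcm2 at 14.7, 14.6 and 14.5 CPM, Mcm5 at 15.5, 17.1 and 14.3 CPM and Rrm2 at 15.5, 16.8 and 15.6 CPM were not called either (adjusted p = 0.498, 0.298 and 0.0672).

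Among mitotic genes Cdk1 stood at 11.8, 11.3 and 9.62 CPM in LMX1B-/- (-0.74 ± 0.20, adjusted p = 0.0168), which overlapped with LMX1B+/- 1. Ube2c stood at 9.53, 8.94 and 10.2 CPM (-0.65 ± 0.18, adjusted p = 0.018) and Ccnb1 at 7.98, 7.19 and 6.92 CPM (-0.54 ± 0.16, adjusted p = 0.0267). Both lay below every LMX1B+/- library. Bub1, a kinase of the spindle checkpoint, stood at 7.36, 7.22 and 6.60 CPM against 8.03, 10.7 and 12.1 CPM (-0.55 ± 0.16, adjusted p = 0.0228). Cdc20, which activates the anaphase-promoting complex, stood at 7.07, 6.21 and 5.28 CPM against 6.66, 12.97 and 8.97 CPM (-0.63 ± 0.21, adjusted p = 0.045), and the microtubule bundler Nusap1 at 14.6, 15.3 and 16.5 CPM against 15.9, 24.002 and 28.8 CPM (-0.57 ± 0.19, adjusted p = 0.0433). The last pair overlapped between the genotypes through LMX1B+/- 1. Mki67 at 79.01, 85.6 and 73.7 CPM and Top2a at 63.3, 59.9 and 55.3 CPM were not called (adjusted p = 0.88 and 0.295), nor were Ccnd1 at 20.8, 19.2 and 20.2 CPM and Ccnd2 at 102, 83.9 and 87.8 CPM (adjusted p = 0.762 and 0.965).

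Without LMX1B+/- 1, 20 members were called lower, and 3 remained without LMX1B+/- 3, LMX1B-/- 1 or LMX1B-/- 3, and 5 without LMX1B-/- 2. Of all genes, 20.8% were called without LMX1B+/- 1, 39.4% of them higher. The shares were 16.8%, 16%, 15.7% and 18.7% without LMX1B+/- 3, LMX1B-/- 1, LMX1B-/- 3 and LMX1B-/- 2. Pcna and Tyms were called without any library in turn. With library size as the only scaling, which moved the median of all genes to 0.22, Pcna alone was called, and 74.2% rather than 45.1% of all called genes were higher. Under that scaling 23.2% of all genes were called. With limma on log2(RPKM + 1) 0 members were called, against 19.9% of all genes, and 1 member had an unadjusted p under 0.05.

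LMX1B-/- did not differ from WT in any member at adjusted p under 0.05. In this comparison 4 of the 21729 genes (0.0184%) were called, Lmx1b among them, and 0 of the 40 members. Unadjusted p-values under 0.05, met by 8.09% of all genes, were found for Plk1, Cenpa and Ccnd1, all lower, and DESeq2 also called 0 members, with 7 under an unadjusted 0.05. The number under an unadjusted 0.05 was 14 when only the 6 libraries compared were fitted. It was 11, 10 or 4 when LMX1B+/- 1, 2 or 3, which are no part of this comparison, was left out. Most values were on the lower side: 34 of 40 members had a negative log2 fold change, with a median of -0.16 for S phase and -0.24 for mitosis against 0.01 for all genes, and 16 members were lower in every LMX1B-/- library than in every WT library, as were 6.09% of all genes. Markers of 2 other cell types lay on the same side, without a call: all 6 endothelial markers had a negative value (median -0.50, 5 of 6 without overlap, sums of 106 to 117 CPM against 136 to 175 CPM), and so had all 6 granule progenitor markers of the cerebellum (median -0.54, 4 of 6 without overlap, sums of 332 to 376 CPM against 378 to 485 CPM). Their part in the values of the members was not tested. Cyclin D1 had the largest such difference, at 20.8, 19.2 and 20.2 CPM against 30.1, 27.98 and 24.04 CPM (-0.45 ± 0.14, adjusted p = 0.538). The Polo kinase gene Plk1 differed by -0.40 ± 0.18 and the centromeric histone gene Cenpa by -0.41 ± 0.17 (adjusted p = 0.604 for both). Mki67 stood at 79.01, 85.6 and 73.7 CPM against 83.5, 126 and 91.03 CPM (-0.33 ± 0.17, adjusted p = 0.639), where WT 2 was high and the groups overlapped. Pcna and Gins1 were on the other side of zero, at 0.14 ± 0.12 and 0.35 ± 0.19 (adjusted p = 0.753 and 0.645). The WT libraries are shared with the comparison of LMX1B+/- and WT.

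**Figure D4:**
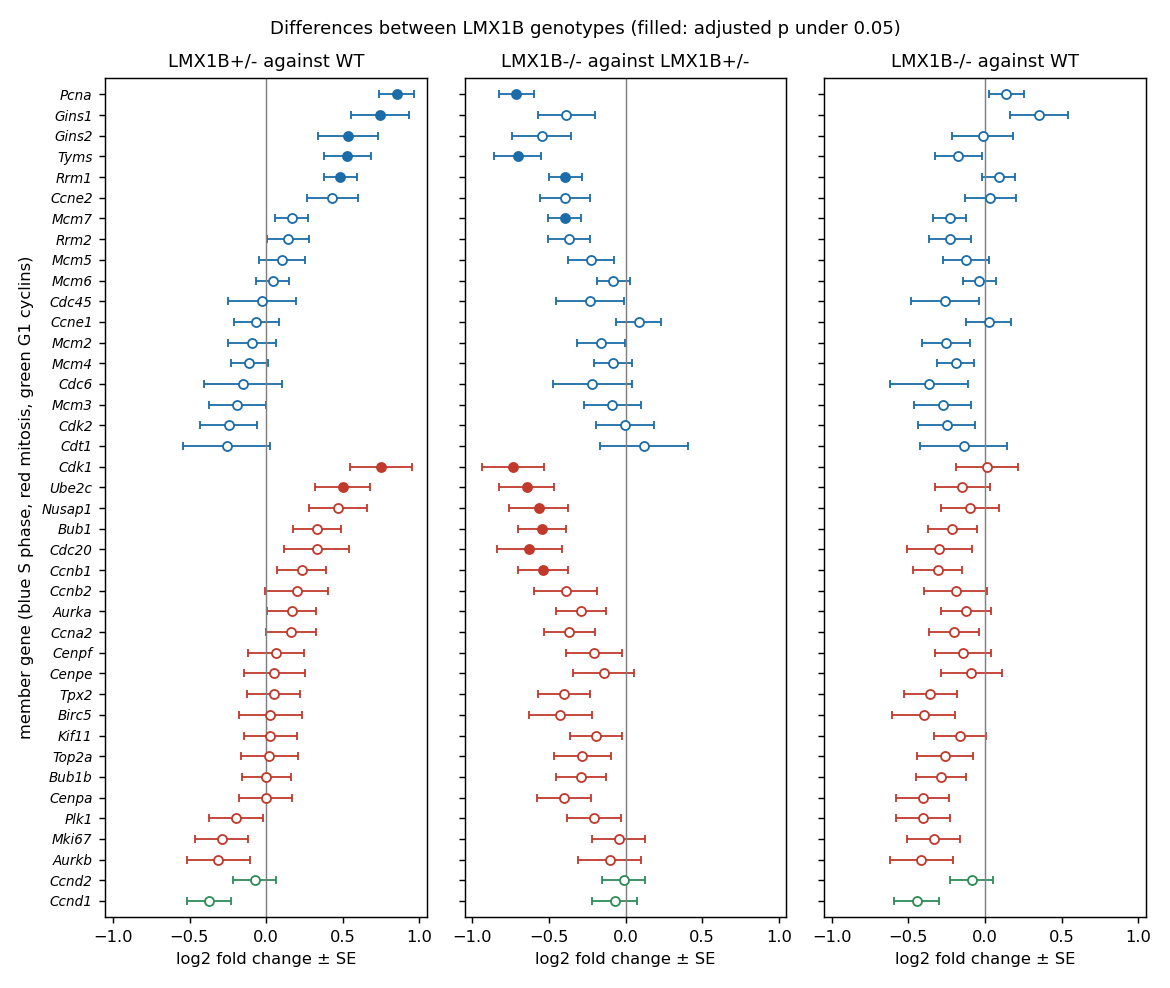
Log2 fold change ± SE (horizontal axis) of the 40 members in the 3 comparisons of LMX1B genotypes, ordered within each class by the first panel, with filled points for an adjusted p under 0.05. The first panel has 7 filled points, all to the right of 0, the second has 10, all to the left, and the third has 0.

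Several marker lists were set beside the LMX1B+/- results. Of all genes tested, 19.4% were called higher in LMX1B+/- than in WT and 17.3% lower. Erythroid markers were higher than in WT in 8 of the 8 tested of 10, with summed levels of 3552 to 7519 CPM in LMX1B+/-, 510.0 to 1252 CPM in WT and 1061 to 2383 CPM in LMX1B-/-. All 10 had counts in each LMX1B+/- library. The precursor markers of oligodendrocytes were lower than in WT in 5 of 6, at 232 to 295 CPM summed against 343 to 402 CPM, and 411 to 437 CPM in LMX1B-/-. Among 11 tested neural progenitor markers Fabp7 and Nes were higher and Notch1 lower, and Fabp7 stood at a mean of 1065 CPM against 417 CPM in WT. Hindbrain genes were called higher in 5 of 8, among them Hoxa5 at a mean of 191 CPM against 70.7 CPM, with sums of 194 to 465 CPM against 104 to 206 CPM in WT and 149.98 to 204 CPM in LMX1B-/-. Endothelial markers were lower in 3 of 6, at 91.3 to 122 CPM summed against 136 to 175 CPM in WT and 106 to 117 CPM in LMX1B-/-. Skeletal muscle markers were higher in 3 of 6 tested, at 14.97 to 16.4 CPM summed against 8.34 to 10.1 CPM in WT and 9.36 to 13.7 CPM in LMX1B-/-. Granule progenitor markers of the cerebellum and meningeal markers were each lower in 2 of 6, microglial markers were lower in 1 of 6, neuronal markers were higher in 2 and lower in 2 of 10, and forebrain markers were called in 0 of 6. Choroid plexus markers were higher in 1 of 6. The called shares of the microglial (16.7% lower), neuronal (20% higher, 20% lower) and choroid plexus (16.7% higher) lists were near those of all genes.

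Within LMX1B+/- the choroid plexus sum, like the mitotic sum, was lowest in library 1: libraries 1, 2 and 3 had 85.9, 1668 and 959.9 CPM of choroid plexus markers and 313, 489.9 and 490.6 CPM of mitotic members. In LMX1B-/- 1, 2 and 3 the choroid plexus sums of 1310.0, 739.7 and 120.0 CPM stood beside mitotic sums of 359, 368 and 334 CPM, and WT had 231 to 381 CPM of choroid plexus markers. Erythroid markers in LMX1B+/- 1, 2 and 3 were at 6095, 3552 and 7519 CPM and hindbrain genes at 465, 231 and 194 CPM, the first lowest in library 2 and the second highest in library 1. Between LMX1B-/- and LMX1B+/- erythroid markers were lower in 8 of 8, precursor markers of oligodendrocytes higher in 6 of 6, skeletal muscle markers lower in 3 of 6 and hindbrain genes lower in 2 of 8. Of all genes tested, 14% were called lower and 11.5% higher there. The part of these cell types and regions in the differences of the members was not tested.

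Gene length moved with the LMX1B+/- comparisons too. Genes under 1 kb had a median log2 fold change of 0.67 between LMX1B+/- and WT and genes over 8 kb one of -0.31. The longer members stood above this course. The 17 members of 4 to 8 kb had a median of 0.05 where all genes of that length had -0.16, and the 6 members over 8 kb had 0.04. Rrm1, with an exonic length of 11.0 kb, stood 0.78 above the trend at its length, Cdk1 0.88 and Pcna 0.80. Mki67 lay on it (-0.01). With the trend removed 5 members were called higher (Pcna, Rrm1, Tyms, Cdk1 and Gins2), and 11 were called lower in LMX1B-/- than in LMX1B+/-. The first of these fits called 28.9% of all genes, 57% of them higher. The second called 16.9%, 36.9% of them higher. A smaller trend with length ran through the AMPK comparison, from 0.52 under 1 kb to -0.24 over 8 kb.

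**Figure D5:**
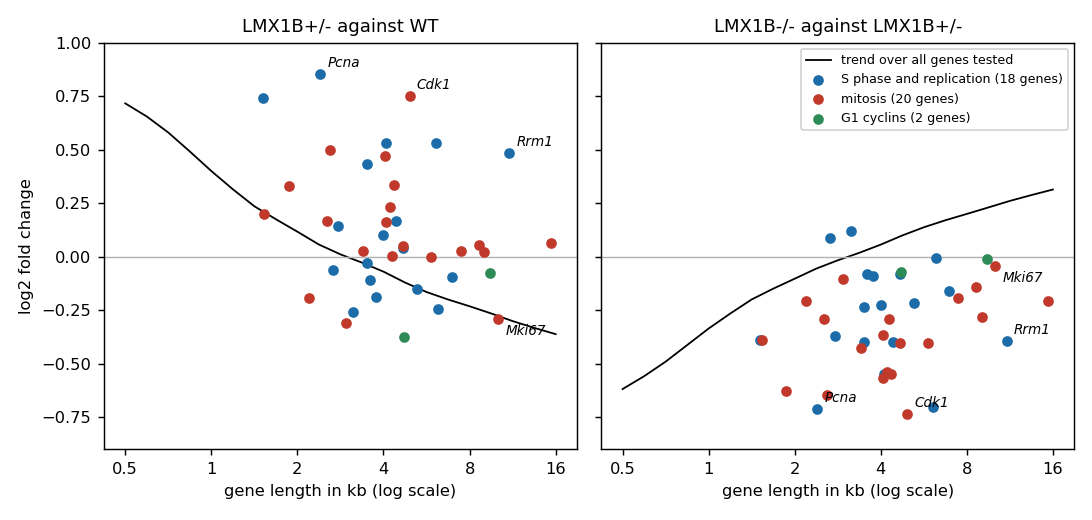
Log2 fold change of each member (vertical axis) against gene length in kb (horizontal axis, log scale) for LMX1B+/- against WT and LMX1B-/- against LMX1B+/-, with the black line showing the trend over all 21729 genes tested. Pcna, Cdk1 and Rrm1 lie 0.80, 0.88 and 0.78 above the line in the first panel and 0.66, 0.84 and 0.65 below it in the second.

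Other genes of the same machinery were listed apart from the 40. Between LMX1B+/- and WT, 10 of 39 tested replication genes were higher (25.6%) and 2 lower (5.13%), with a median log2 fold change of 0.12 against -0.03 for all genes, of which 19.4% were higher and 17.3% lower. The smallest p belonged to the clamp loader subunit Rfc4 (7.73 against 3.69 CPM on average, 1.07 ± 0.16, adjusted p = 0.000241), the origin recognition subunit Orc6 (0.83 ± 0.13, adjusted p = 0.000267) and the fork protection factor Tipin (0.78 ± 0.13, adjusted p = 0.000414). Among 50 further mitotic genes 10 were higher (20%, near the 19.4% of all genes) and 0 lower, the first by p being Cks1b, a subunit of cyclin-dependent kinases (14.2 against 7.44 CPM, 0.93 ± 0.12, adjusted p = 9.64e-05), Ckap2 (0.79 ± 0.14) and the kinase gene Pbk (0.84 ± 0.19). Of 20 E2F and RB regulators 2 were higher, with Cdk4 first (0.43 ± 0.09, adjusted p = 0.00201), and 3 were lower, among them E2f3 (-0.49 ± 0.11) and Rbl2 (-0.41 ± 0.09). Of 16 inhibitors of the cycle 4 were higher, including Cdkn1c (0.59 ± 0.12) and Cdkn2d (0.58 ± 0.13), and Cdkn1a was lower (-0.53 ± 0.09, adjusted p = 0.000505).

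In LMX1B-/- against LMX1B+/- 0 of 39 replication genes were higher and 11 lower (28.2%), and 0 of the 50 further mitotic genes were higher and 15 lower (30%), where 11.5% of all genes were higher and 14% lower. Cks1b (-1.03 ± 0.12, adjusted p = 9.94e-05), Rfc4 (-1.08 ± 0.16) and Cdk4 (-0.56 ± 0.09) were again in front, and Orc6 (-0.69 ± 0.13) and Ckap2 (-0.63 ± 0.14) followed. Rfc3 (-0.53) and the kinetochore gene Spc25 (-0.78) were also among those with the smallest p. Of the 20 E2F and RB regulators 1 was higher, Rbl2 (0.32 ± 0.09), and 2 were lower, Cdk4 and E2f5 (-0.51). Of the 16 inhibitors 1 was higher and 4 were lower, among them Cdkn1c (-0.78 ± 0.12), Ccng2 (-0.51) and Cdkn2d (-0.38). Against WT 0 of the 125 tested pathway genes were called in LMX1B-/-, as were 0.0184% of all genes, with 13 at an unadjusted p under 0.05 in edgeR. As with the members, most values were on the lower side, 99 negative and 26 positive. Their median log2 fold change was -0.12, against 0.01 for all genes. Without overlap 33 of the 125 were lower and 4 higher, where 6.09% of all genes were lower and 11.9% higher. In neonatal AMPK-/- 1 of 92 was called, where 8.94% of all genes were: securin (Pttg1), which holds back separase until anaphase, had 12.5, 23.97 and 36.3 CPM in the 3 AMPK-/- libraries, where WT had 0.527, 0 and 0.700 CPM (5.03 ± 0.44, adjusted p = 3.3e-07). No WT library reached the lowest AMPK-/- library. In the prenatal libraries Pttg1 stood at 5.30 to 10.5 CPM.

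Several members share sequence or position with other genes. Ccnb1-ps took 23.9% and Tyms-ps 4.42% of the counts on the pair with their member in prenatal tissue. Ccnb1-ps was lower in LMX1B-/- than in LMX1B+/- (-0.81, adjusted p = 0.0244), like Ccnb1. The exons of 12 members overlap those of a gene on the opposite strand in the GENCODE M21 annotation, among them Cdc20, Gins2, Mcm7, Nusap1 and Ube2c. The library kit keeps strand, and whether the counting used it is not given in the sources used here.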

How the data were processed

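Polyadenylated RNA from C57BL/6 brainstem was extracted with TRIzol, prepared with a strand-keeping NEXTflex kit and sequenced on an Illumina HiSeq. The authors aligned reads with HISAT2 (the submitters' processing notes name GRCm39) and deposited raw counts per gene and RPKM values; how reads were assigned to strand or to several matching genes, and the use of molecular identifiers, are not given in the sources used here. The 40 members and all lists were chosen with earlier results of these data known. Symbols were matched for 51884 of 57180 identifiers. Deposited counts were tested within each experiment with edgeR's quasi-likelihood test (4.0.16, R 4.3.3), TMM scaling and filterByExpr, over all genes with Benjamini-Hochberg adjustment, calling adjusted p under 0.05. DESeq2 (1.42.0) and limma (3.58.1) on log2 RPKM were alternatives; adding pseudogene copies, the replicate block with a length correction, and leaving WT libraries out of the prenatal to neonatal ratios were chosen after the data were seen. Named members were those called, a panel of 10, and the highest and lowest by RPKM. Of the other pathway lists, the called genes with the 3 smallest p were eligible to be named. The fit was tested on simulated data.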

Additional observations from a re-analysis of the deposited data

How the results depend on the processing

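For AMPK-/- against WT, 0 members were called by edgeR, 2 had an unadjusted p under 0.05, and leaving out each library in turn gave 0 to 1. Over all genes that fit called 1555, DESeq2 644, limma 0, the fits without a library 548 to 2958, and the fit without both shallow libraries 6. The filter of at least 10 counts in every library left no member to test. For LMX1B+/- against WT, where 7 were called, limma on log2 RPKM gave 2 with a pseudocount of 1 and 2 with 0.1, library size as the only scaling gave 3, and leaving out a library gave 4 to 12. Over all genes edgeR called 7977 there, limma 7273 and 7280, library size only 7870, and the fits without a library 5911 to 8404. For LMX1B-/- against LMX1B+/-, where 10 were called, limma gave 0 with either pseudocount, library size only 1, an unadjusted threshold 16, and leaving out a library 3 to 20. Over all genes these were 5544 by edgeR, 4334 and 4500 by limma, and 5033 with library size only. An unadjusted threshold gave 8001, and leaving out a library 3500 to 6054. For LMX1B-/- against WT, 0 were called, 3 at an unadjusted threshold, and 0 to 0 without a library. The unadjusted count was 14 with only the 6 libraries compared, 11 without LMX1B+/- 1, 10 without LMX1B+/- 2 and 4 without LMX1B+/- 3. There all genes called numbered 4, against 36 by DESeq2, 19 with library size only and 329 without the filter. Library size as the only scaling moved the median of all genes in the AMPK comparison to -0.18, and the share of called genes that were higher from 42.1% to 14.2%. The cause of these differences was not tested. No called member changed sign in any alternative. Replicate numbers did not pair the samples throughout. Correlations of same-numbered deviations ran from -0.121 to 0.0476 in the AMPK experiment and from -0.177 to 0.148 in the LMX1B experiment. Between WT and LMX1B-/- they were 0.0758, 0.148 and 0.0974, and those of differently numbered libraries ran from -0.0952 to -0.01. In the other pairs of LMX1B genotypes all same-numbered values were negative. The replicate block gave 1, 6, 0 and 9 members in the AMPK, LMX1B+/- against WT, LMX1B-/- against WT and LMX1B-/- against LMX1B+/- comparisons. With the length trend removed it gave 6, 0 and 9 in the latter 3. Over all genes the replicate block called 7.76%, 33.3%, 0.023% and 21.7% in the same order. With the length trend removed too it called 24.8%, 0.023% and 13.1% in the latter 3. Adding pseudogene counts left 0, 7, 0 and 10 members. In the shallow libraries most members had fewer than 3 counts, so differences there were not detectable at this depth.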
